A study of Mus musculus with 2 samples.

Results

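Globin and erythroid genes are described here in hematopoietic stem cells (HSCs), the cells from which red cells arise many divisions later. The 9 genes were chosen by name, as the regulator Klf1, the receptor gene Epor, the adult globin genes Hba-a1, Hba-a2, Hbb-bs and Hbb-bt, the membrane gene Slc4a1 and the carbonic anhydrase genes Car1 and Car2, out of 21938 protein-coding genes of the annotation. Chromatin accessibility was measured by single-cell ATAC-seq, in which a transposase cuts open DNA and each sequenced fragment carries the barcode of its cell. One library was made from young (10-week-old) and 1 from aged (20-month-old) C57BL/6 mice, so no test between ages was possible, and every interval below is a 95% interval that covers counting error only, except that of a median, which reflects the spread between genes. Both groups were sorted from bone marrow on the same surface phenotype, which lacked the IL-7 receptor, Lin, CD34, CD48 and Flt3 and carried Sca-1, c-kit and CD150, and no genetic change or treatment is named for either. How many mice each library came from is not given in the sources used here.

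Red cell formation is driven by the factors Gata1, Tal1 and Klf1, the last of which binds CACCC elements in the beta-globin promoter. Erythropoietin acts through Epor to keep the progenitors alive. The alpha-globin genes are controlled by enhancers in the introns of the neighbouring gene Nprl3, and the beta-globin genes by a locus control region upstream of the embryonic gene Hbb-y. Most of these genes are used long after the HSC stage, and the counts were read for whether their promoters and control regions were open in HSCs and how the levels compared between the ages.

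Cells were barcodes called as cells with 3000 to 20000 in-peak fragments, 4887 of 5028 called young and 3405 of 3694 called aged barcodes. They held 50069575 young and 38663214 aged fragments, with a median of 9890 and 11020 per cell. Values are fragments per 1000000 in-peak fragments (FPM), over totals of 34672506 and 26164957. Fragments under 150 bp made up 60.3% of the young and 55.6% of the aged fragments, and the median enrichment at start sites was 5.78 and 5.30. Possible doublets numbered 216 young and 229 aged cells, and 26 cell barcodes occurred in both libraries. Among the 8 HSC markers, promoter levels ranged from 0.519 to 51.3 FPM in young and from 0.535 to 47.9 FPM in aged cells. Mecom was lowest and Kit highest in each library. Summed, these markers were at 203 FPM in young and 198 FPM in aged cells. The erythroid list, which includes members, was at a summed 51.4 and 48.8 FPM. The T cell list was at a summed 9.92 FPM in young and 6.73 in aged cells, the myeloid list at 21.7 and 21.5, the B cell list at 52.8 and 51.7 and the megakaryocyte list at 141 and 129. Within the myeloid list Mpo was lower and Elane higher in aged cells, log2 ratios -0.65 (-1.20 to -0.15) and 0.77 (0.25 to 1.31). The part of these differences between the libraries in the values below was not tested.

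Promoter sequences are given first, to show which factor words the members carry beside their start sites and why reads of the globin copies are hard to place. The 150 bases upstream of the RefSeq start site (GRCm38.p6, the same build as mm10) were available for 6 of the 9 genes, and not for Slc4a1, Car1 and Car2. Capitals mark, on either strand, GATA words (AGATAA or AGATAG or TGATAA or TGATAG), KLF words (CCNCNCCC), CCAAT boxes and TATAA, and overlapping matches run together. Each sequence reads 5′ to 3′ on the strand of its gene.
Klf1, chr8:84901832-84901981, plus strand: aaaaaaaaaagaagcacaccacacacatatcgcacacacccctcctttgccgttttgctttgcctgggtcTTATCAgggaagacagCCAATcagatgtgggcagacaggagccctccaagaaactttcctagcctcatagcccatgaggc
Epor, chr9:21963577-21963726, minus strand: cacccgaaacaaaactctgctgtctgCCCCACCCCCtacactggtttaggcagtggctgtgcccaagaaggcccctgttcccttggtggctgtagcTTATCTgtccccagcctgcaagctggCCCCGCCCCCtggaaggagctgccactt
Hba-a1, chr11:32283522-32283671, plus strand: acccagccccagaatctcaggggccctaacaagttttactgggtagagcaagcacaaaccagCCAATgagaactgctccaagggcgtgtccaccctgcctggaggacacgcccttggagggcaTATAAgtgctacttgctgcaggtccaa
Hba-a2, chr11:32296342-32296491, plus strand: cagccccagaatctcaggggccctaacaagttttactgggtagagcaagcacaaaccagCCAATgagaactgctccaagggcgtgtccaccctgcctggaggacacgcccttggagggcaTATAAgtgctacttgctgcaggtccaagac
Hbb-bs, chr7:103827929-103828078, minus strand: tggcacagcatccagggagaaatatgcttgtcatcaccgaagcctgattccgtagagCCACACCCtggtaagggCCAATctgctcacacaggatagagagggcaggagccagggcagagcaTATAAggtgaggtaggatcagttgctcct
Hbb-bt, chr7:103813924-103814073, minus strand: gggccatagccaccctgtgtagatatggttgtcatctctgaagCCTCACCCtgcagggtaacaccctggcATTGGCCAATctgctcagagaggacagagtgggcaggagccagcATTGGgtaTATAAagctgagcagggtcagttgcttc

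All 4 globin windows held TATAA and a CCAAT box, words found in 14.2% and 24.5% of 32851 RefSeq promoter windows of this length. The beta-globin windows each held 1 KLF word, found in 38.1% of all windows, and the alpha-globin windows held none. A GATA word stood in the Klf1 and Epor windows and in 16% of all windows. The Hba-a1 and Hba-a2 windows were identical over their aligned bases, and those of Hbb-bs and Hbb-bt had the same base at 76.2% of theirs. Reads from identical copies cannot be placed, so the share of 50-base words found once in the genome was taken for each counted window. It was 31.2% around the Hba-a1 start site, 24.8% around Hba-a2, 66.8% around Hbb-bs and 60.2% around Hbb-bt, against 91.0% for Slc4a1 and 100% for Klf1, Epor, Car1 and Car2. Reads from the repeated part are lost in both libraries, so levels of the globin genes were compared between the ages, and beside other genes they are lower bounds.

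Promoters were counted over the annotated start site with 1 kb on either side. Of the 9 promoters, Klf1, Epor and Car2 held between 5.96 and 40.4 FPM and the other 6 at most 1.57 FPM, a lower bound for the 4 globin genes. The 1135 promoters of olfactory receptor genes, which HSCs do not use, served as a measure of background, with a median of 0.115 FPM in each library and a 95th percentile of 0.519 FPM in young and 0.547 FPM in aged cells. In young cells 8 of the 9 members were above that percentile, with Car1 below it. In aged cells 5 were above it, namely Klf1, Epor, Hbb-bt, Slc4a1 and Car2. Where the other globin promoters would lie with all their reads placed is not known. Hba-a1 missed the aged cut by little, at 0.535 FPM with an interval from 0.293 to 0.898. Among all promoters, the 0.606 FPM of Hbb-bs in young cells stood at percentile 24.6. The 0.535 FPM of Hba-a1 in aged cells stood at percentile 23.3. Most promoters of the genome were thus above the olfactory cut in each library. The median of all protein-coding promoters was 14.3 FPM in young and 15.1 FPM in aged cells.

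**Figure D1:**
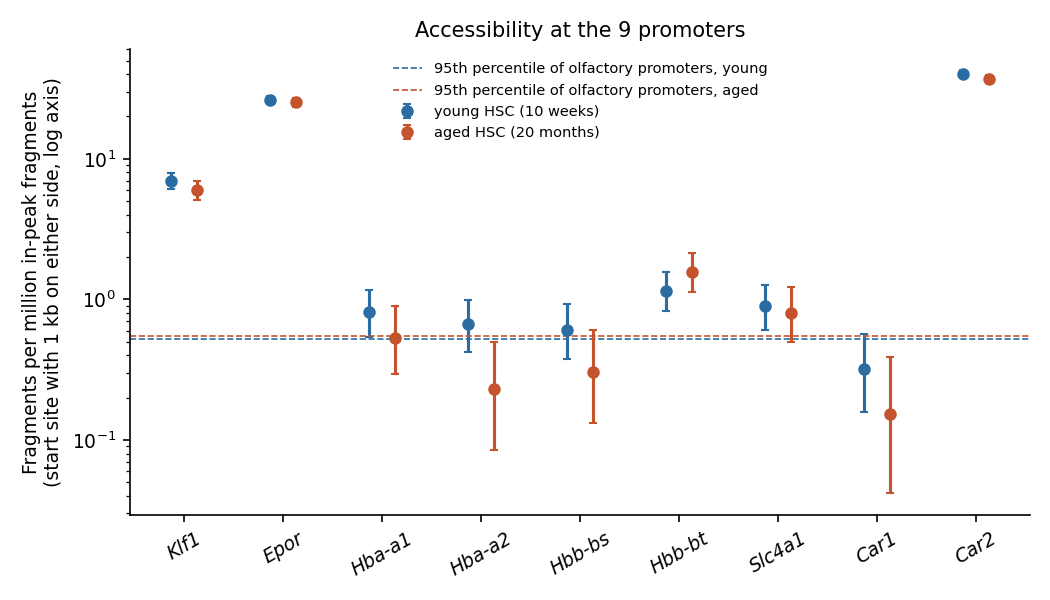
Promoter levels in FPM (log axis) at the promoters of the 9 genes, with 1 point per library and 95% Poisson intervals for counting error, and dashed lines at the 95th percentile of 1135 olfactory receptor promoters. Klf1, Epor and Car2 lie far above the lines in both libraries, and the intervals of the young and aged points overlap for every gene.

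Between the ages, the promoters with enough fragments to be described by fold differed by less than 1.5-fold. Of the 5 with at least 50 fragments over both libraries (Klf1, Epor, Hbb-bt, Slc4a1 and Car2), 0 were higher and 0 lower in aged HSCs, where 3.99% of 15978 such promoters were higher and 1.30% lower. Of the 4 under that minimum, Hba-a2, Hbb-bs and Car1 were lower in aged HSCs by more than the fold. Of these only the interval of Hba-a2 left out 0. It held 0 with thinned cells (-4.56 to 1.14) and with fragments under 150 bp (-4.43 to 1.39). Within 500 bp of the start site, with 8 young and 1 aged fragments, it held 0 too (-8.07 to 0.31). At its other annotated start sites Hbb-bs stayed inside the fold, with log2 ratios of -0.22 and -0.53. On the log2 scale the aged to young ratio had a median of -0.22 over all 9 members. The interval of that median, from -0.88 to -0.0519, held the median over all promoters with the minimum, which was -0.0533. Over the 5 members with the minimum the median was -0.13. Of the 9 ratios 8 were below 0, with Hbb-bt the exception, and among all promoters 10261 of 15978 were below 0. Epor was above 0 with thinned cells (0.04) and with possible doublets left out (0.00014), and Slc4a1 with thinned cells (0.31) and with fragments under 150 bp (0.15), each with an interval that held 0.

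Klf1, the erythroid CACCC-binding factor, lies at chr8:84901928-84905291 on the plus strand. Its promoter held 241 young and 156 aged fragments, 6.95 FPM (6.10 to 7.89) and 5.96 FPM (5.06 to 6.97). The log2 ratio was -0.22 (-0.52 to 0.08), so the ages could not be told apart within counting error. At percentile 40.5 of all promoters in young and 38.1 in aged cells, this window was the least open of the 3 open members. Most of the signal lay inside the gene. A peak in the coding sequence, 1.32 kb downstream of the start site at chr8:84902835-84903663, held 1147 young and 878 aged fragments, 33.1 and 33.6 FPM, with a log2 ratio of 0.02 (-0.11 to 0.15). The whole gene body gave 36.7 FPM in young and 36.2 FPM in aged cells, a log2 ratio of -0.02 (-0.14 to 0.10). Within 500 bp of the start site 77 young and 35 aged fragments were left, which was past the fold with a log2 ratio of -0.71 (-1.35 to -0.14). At that window size 1.04% of 15061 promoters were lower by the fold, and 24.5% had an interval below 0. In these 2 libraries the aged level was thus lower within 500 bp of the start site. At the larger internal peak the ages differed by less than counting error.

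The open sites around Klf1 belonged mainly to its neighbours. The 3 bins with most fragments in the 50-kb flanks and gene were one in the UTR of Dnase2a 6.82 kb downstream (1286 young and 878 aged fragments), one in the UTR of Gcdh 8.18 kb upstream (1210 and 871) and the bin in the coding sequence of Klf1 (942 and 705). Of 54 bins of 500 bp with the minimum, 0 were higher and 2 lower. The lower end was a bin in an intron of Farsa, 40.7 kb upstream, with 59 young and 12 aged fragments, log2 ratio -1.80 (-2.92 to -0.98). The peak in that bin, chr8:84861335-84861481, held 50 young and 6 aged fragments, log2 ratio -2.46 (-4.17 to -1.43). A ratio at most as low was found in 0.0233% of all peaks with the minimum. The highest ratio belonged to a bin in an intron of Syce2 with 85 and 87 fragments, and it did not pass the fold. Over all autosomal bins 13.3% were higher and 5.02% lower. The Klf1 locus held a smaller share of higher bins than the genome, with a median log2 ratio of -0.06 against 0.07 for all bins. Over all promoters with the minimum the median was -0.05 and 3.99% were higher. The part that promoters of neighbouring genes had in the values of the locus was not tested.

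Epor, which encodes the erythropoietin receptor, lies at chr9:21958897-21963506 on the minus strand. Its promoter held 907 young and 660 aged fragments, 26.2 FPM (24.5 to 27.9) and 25.2 FPM (23.3 to 27.2). The log2 ratio was -0.05 (-0.20 to 0.09), and the gene body gave 0.01 (-0.12 to 0.14). The open site lay downstream of the outermost start. A peak 1.001 kb inside the gene, at chr9:21961972-21963038, held 904 and 682 fragments, while the peak that overlaps the printed promoter window held 75 and 43. At the second annotated start site, chr9:21962564, 1072 young and 826 aged fragments were counted, 30.9 and 31.6 FPM. In the flanks, a peak in an intron of Plppr2, 15.9 kb downstream at chr9:21947276-21947927, held 196 young and 76 aged fragments, log2 ratio -0.95 (-1.36 to -0.57). Of 42 bins with the minimum in the Epor locus 0 were higher and 2 lower, again beside 13.3% and 5.02% of all bins, the shares against which the counts of the later loci also stand.

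Car2, the widely used cytosolic carbonic anhydrase, lies at chr3:14886273-14900770 on the plus strand and was the most accessible member. Its promoter held 1400 young and 963 aged fragments, 40.4 FPM (38.3 to 42.5) and 36.8 FPM (34.5 to 39.2), at percentile 79.9 and 78.3 of all promoters. The log2 ratio was -0.13 (-0.25 to -0.01), an interval that left out 0 by little and lay well inside the fold. It held 0 when scaled to promoter fragments (-0.20 to 0.04) or by TMM (-0.21 to 0.03) and with fragments under 150 bp (-0.22 to 0.08). The gene body gave -0.09 (-0.19 to 0.00). Without the window around the start site the Car2 body gave 0.02 (-0.13 to 0.16). Among the sites upstream, a peak in the coding sequence of Car3, 14.7 kb upstream, held 593 and 376 fragments, log2 ratio -0.25 (-0.44 to -0.06). A peak 29.3 kb downstream of the Car2 start, at chr3:14915277-14915869, held 506 and 286 fragments, log2 ratio -0.41 (-0.63 to -0.20), still under the fold.

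Car1, the erythrocyte carbonic anhydrase in the same cluster as Car2, stood at the level of an olfactory receptor promoter, with 11 young and 4 aged fragments, 0.317 FPM (0.158 to 0.568) and 0.153 FPM (0.0417 to 0.391). These counts are under the minimum, and the interval of the log2 ratio of -0.86 (-3.16 to 0.70) spanned both directions. Over the 42.2-kb body of Car1, chr3:14766216-14808368, the level was 0.0978 FPM per kb in young and 0.0898 in aged cells, against 4.17 and 3.91 for the Car2 body. The joint Car1 and Car2 locus held 18 higher and 0 lower bins among 74 with the minimum, 24.3% higher against 13.3% higher and 5.02% lower over all bins, and its median log2 ratio was 0.15. This excess stayed with possible doublets left out (26.5% against 13.2% of all bins) and with cut sites (24.1% against 15.7%). It also stayed at a minimum of 20 fragments (28.7% against 18.4%). It was not seen under 2 other ways of counting, which cut the fragments and so left fewer bins to judge. With each cell thinned to 3000 in-peak fragments 1 of 26 bins was higher and 1 lower, against 10.6% and 4.25% over all bins, and with fragments under 150 bp 0 of 28 were higher and 3 lower, against 9.96% and 6.65%. The bin with the highest ratio, 18.0 kb downstream of the Car2 start, held 22 young and 49 aged fragments, log2 ratio 1.53 (0.81 to 2.36). In the combined peaks of the same locus, 1 of 19 was higher and 1 lower, against 13.2% higher and 6.48% lower among all peaks. Over all 6 loci 3 of 107 peaks were higher and 8 lower.

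Slc4a1 encodes band 3, the anion exchanger of the red cell membrane, at chr11:102348824-102366203 on the minus strand. Its promoter held 31 young and 21 aged fragments, 0.894 FPM (0.607 to 1.27) and 0.803 FPM (0.497 to 1.23), log2 ratio -0.13 (-1.03 to 0.69). The annotation gives 5 start sites, whose windows held 27 to 41 young and 20 to 30 aged fragments, and the one at chr11:102363704 passed the fold with 41 and 20, log2 ratio -0.59 (-1.48 to 0.17). The gene body held 281 young and 174 aged fragments, log2 ratio -0.28 (-0.57 to -0.01), the lowest body ratio of the 6 members with the minimum. That interval left out 0 by little, and held 0 when scaled to promoter fragments or by TMM. Of these 6 bodies, 0 were past the fold in either direction, where 3.40% of 18445 bodies were higher and 0.781% lower.

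The flanks of Slc4a1 were open in both libraries. A peak over the long noncoding gene Bloodlinc, 9.61 kb upstream, held 281 young and 207 aged fragments, log2 ratio -0.03 (-0.30 to 0.23). A peak 27.3 kb downstream, chr11:102338571-102339165, held 587 and 534, log2 ratio 0.27 (0.10 to 0.44). A peak in an exon of Rundc3a, 33.7 kb upstream, held 67 and 23, log2 ratio -1.10 (-1.89 to -0.43), the lowest among the peaks of the locus with the minimum. Of 42 bins with the minimum 2 were higher and 3 lower.

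**Figure D2:**
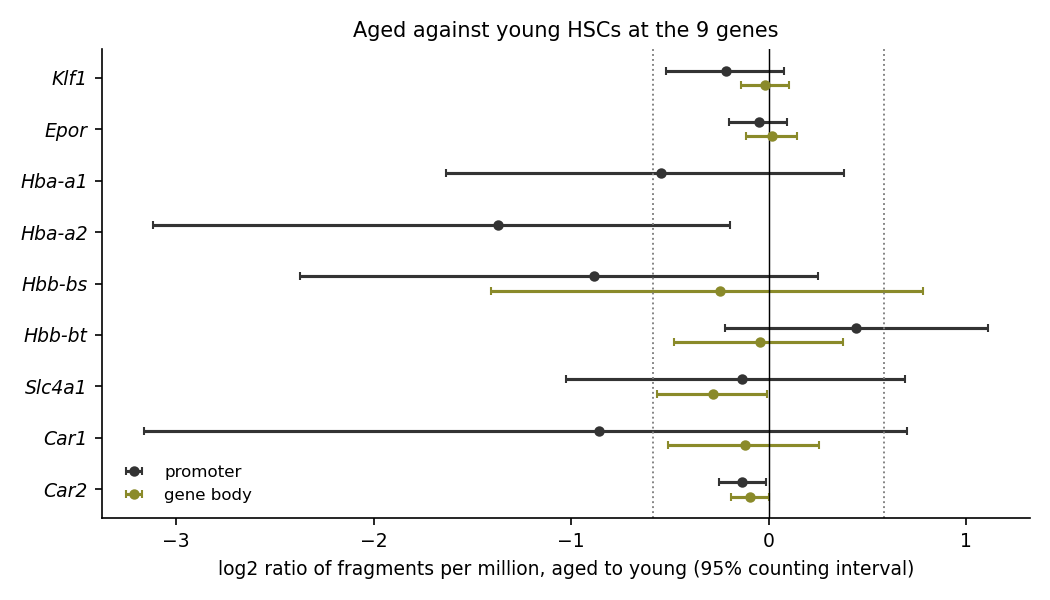
Ratio of the aged to the young level on the log2 scale for promoters and gene bodies with 95% counting intervals, where the dotted lines mark a fold of 1.5 in either direction. Bodies of Hba-a1 and Hba-a2 held under 10 fragments and are not drawn. The promoter intervals of the globin genes, Slc4a1 and Car1 reach past a dotted line, and the body intervals of Slc4a1 and Car1 do not.

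The alpha-globin genes Hba-a1 (chr11:32283511-32284465) and Hba-a2 (chr11:32296489-32297298) encode the same subunit of adult hemoglobin. The Hba-a1 promoter held 28 young and 14 aged fragments, 0.808 FPM (0.537 to 1.17) and 0.535 FPM (0.293 to 0.898). The Hba-a2 promoter held 23 and 6, 0.663 FPM (0.421 to 0.995) and 0.229 FPM (0.0842 to 0.499). Both were lower in the aged library, Hba-a1 with a log2 ratio of -0.54 (-1.63 to 0.38) and Hba-a2 with -1.37 (-3.12 to -0.20), and both are under the minimum. Summed over the pair, 51 young and 20 aged fragments gave a log2 ratio of -0.90 (-1.77 to -0.17), past the fold and the minimum. Within 5 kb of the start sites, the counts were 322 and 223 for Hba-a1 and 418 and 233 for Hba-a2, with log2 ratios of -0.12 and -0.43. These wider windows reach the promoters of the theta-globin genes Hbq1b and Hbq1a, which held much of the count (237 and 172 fragments at Hbq1b, 278 and 169 at Hbq1a), so they do not describe the adult alpha-globin promoters alone. The bodies held 3 young and 0 aged fragments for Hba-a1 and 4 and 1 for Hba-a2, of which 5.24% and 6.17% of words were unique, so the transcribed part of these genes was hardly measured.

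The control region of the alpha-globin genes, taken as the 35 kb upstream of the embryonic gene Hba-x, held open sites in HSCs of both ages. It held 2582 young and 1822 aged fragments, 74.5 and 69.6 FPM, log2 ratio -0.10 (-0.18 to -0.01). The peak at the promoter of Nprl3 (chr11:32267297-32267837) held 970 young and 622 aged of these fragments, log2 ratio -0.23 (-0.38 to -0.09). Without it 1612 and 1200 fragments were left, log2 ratio -0.02 (-0.13 to 0.09). These still included a raised peak described below, with 40 young and 83 aged fragments. A count without both peaks was not made, so the lower aged level of the region is not assigned to 1 site. The highest bins of the region were at the promoter of Nprl3, 908 and 572 fragments, and in an intron of Nprl3 18.3 kb upstream of Hba-a1, 679 and 507. The intronic site is a peak 11.0 kb upstream of Hba-x, chr11:32265129-32265605, with 703 and 516 fragments and a log2 ratio of -0.04 (-0.21 to 0.13). A peak 29.1 kb upstream held 340 and 220 fragments, log2 ratio -0.22 (-0.47 to 0.03). The erythroid enhancers are named by their distance from Hba-x, and windows of 500 bp on either side of the named distances held 17 and 7 fragments at HS-31, 11 and 13 at HS-26, 10 and 4 at HS-21, 14 and 7 at HS-16, 50 and 37 at HS-12 and 95 and 71 at HS-8. Such names are rounded. Peaks lay just outside the windows of HS-26, HS-12 and HS-8. The one beside HS-26 was the raised peak at chr11:32250982-32251316, described below. The one beside HS-12 was the intronic peak 11.0 kb upstream of Hba-x, and the one beside HS-8 the Nprl3 promoter peak. None adjoined the windows of HS-31, HS-21 and HS-16.

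One site of the alpha-globin control region stood apart from the rest. The bin with the highest ratio of the locus, in an intron of Nprl3, held 41 young and 88 aged fragments, 1.18 and 3.36 FPM, and it was the 1 higher bin among 38 with the minimum, beside 3 lower. The peak under it, chr11:32250982-32251316, is 25.3 kb upstream of Hba-x and held 40 young and 83 aged fragments, 1.15 and 3.17 FPM, log2 ratio 1.44 (0.90 to 2.04). A ratio at least as high was found in 2.27% of all peaks with the minimum. This peak had the highest ratio of the 107 with the minimum over the 6 loci, and was named after the values were seen. The fragments came from 40 young and 82 aged cells, with at most 2 in any cell. All its 50-base words were unique. The central 200 bases held 1 GATA word, as did 24.7% of 166208 peaks, and 1 match to the core shared by AP-1 and NF-E2 (TGANTCA), as did 9.33%. They are shown with the same stretch of the steady intronic peak 11.0 kb upstream of Hba-x, with GATA, KLF and TGANTCA words in capitals, on the plus strand.
Peak 25.3 kb upstream of Hba-x, chr11:32251050-32251249: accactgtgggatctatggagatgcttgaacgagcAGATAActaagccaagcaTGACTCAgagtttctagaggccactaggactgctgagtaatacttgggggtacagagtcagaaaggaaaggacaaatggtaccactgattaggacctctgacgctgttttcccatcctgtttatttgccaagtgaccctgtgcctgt
Peak 11.0 kb upstream of Hba-x, chr11:32265268-32265467: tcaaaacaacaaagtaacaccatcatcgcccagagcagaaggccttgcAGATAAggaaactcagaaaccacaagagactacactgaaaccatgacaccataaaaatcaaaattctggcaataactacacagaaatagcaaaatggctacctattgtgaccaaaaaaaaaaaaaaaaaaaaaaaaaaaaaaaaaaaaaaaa

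**Figure D3:**
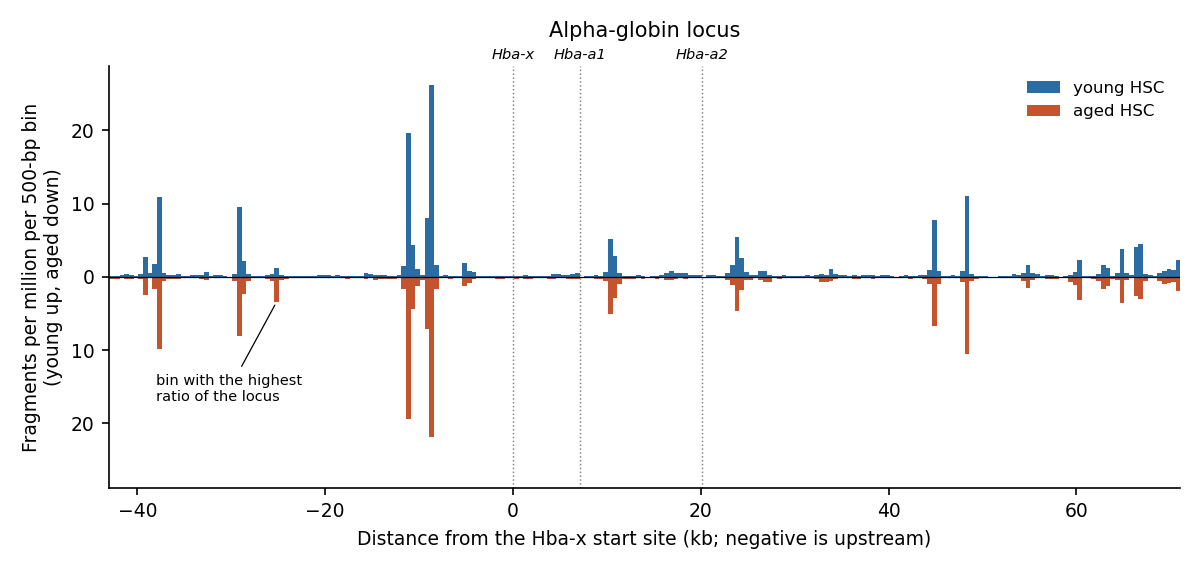
Levels in FPM per 500-bp bin (young upwards, aged downwards) against the distance in kb from the Hba-x start site, with the start sites of Hba-x, Hba-a1 and Hba-a2 marked. The tall bins 11.0 kb and 8.83 kb upstream are tall in both libraries. The bin with the highest ratio is low in both and larger in the aged library. No peak is seen at the Hba-a1 and Hba-a2 promoters, where 31.2% and 24.8% of words were unique. Reads from the repeated part are lost, so a peak there could be missed.

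The beta-globin genes Hbb-bs (chr7:103826534-103828096) and Hbb-bt (chr7:103812524-103813996) lie on the minus strand and encode the beta subunits of adult hemoglobin in this strain. The Hbb-bs promoter held 21 young and 8 aged fragments, 0.606 FPM (0.375 to 0.926) and 0.306 FPM (0.132 to 0.602). The Hbb-bt promoter held 40 and 41, 1.15 FPM (0.824 to 1.57) and 1.57 FPM (1.12 to 2.13), the most fragments of the 4 adult globin promoters in either library. Their log2 ratios pointed in opposite directions, -0.88 (-2.37 to 0.25) for Hbb-bs and 0.44 (-0.22 to 1.11) for Hbb-bt, each with an interval that held 0. Summed over the pair, 61 young and 49 aged fragments gave 0.10 (-0.48 to 0.66), and over all 4 globin genes 112 and 69 fragments gave -0.28 (-0.75 to 0.15). The Hbb-bt body held 111 and 81 fragments, log2 ratio -0.04 (-0.48 to 0.38), and the Hbb-bs body 21 and 13.

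The tallest peaks of the beta-globin locus lay just downstream of Hbb-bt. One 4.79 kb downstream of the start site, chr7:103808913-103809490, held 614 young and 439 aged fragments, 17.7 and 16.8 FPM, log2 ratio -0.08 (-0.26 to 0.10). One 1.66 kb downstream, chr7:103812145-103812526, held 400 and 274, log2 ratio -0.14 (-0.37 to 0.09). The central 200 bases of each held 2 GATA words. At both sites the ages differed by less than counting error. The levels were far above those counted at the promoters of the genes beside them, which are lower bounds.

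The beta-globin control region, taken as the 25 kb upstream of Hbb-y, held 864 young and 762 aged fragments, 24.9 FPM (23.3 to 26.6) and 29.1 FPM (27.1 to 31.3). Its log2 ratio of 0.23 (0.08 to 0.37) was opposite in sign to that of the alpha-globin control region, and the intervals of the 2 ratios did not overlap. They did overlap, by little, without the Nprl3 promoter peak. They also overlapped with thinned cells, at 0.09 (-0.15 to 0.32) for the beta- and -0.03 (-0.17 to 0.11) for the alpha-globin control region, and with fragments under 150 bp, at 0.16 (-0.03 to 0.34) and -0.08 (-0.19 to 0.02). Both ratios were inside the fold. The main site was a pair of peaks 7.92 and 8.52 kb upstream of Hbb-y. The first, chr7:103860883-103861391, held 277 and 247 fragments, 7.99 and 9.44 FPM, log2 ratio 0.24 (-0.01 to 0.49), and the second 125 and 113, log2 ratio 0.26 (-0.12 to 0.64). A peak 20.0 kb upstream held 119 and 91, log2 ratio 0.02 (-0.39 to 0.43). In the locus 2 of 25 bins with the minimum were higher and 1 lower. The first peak of the pair carried 2 copies of TGACTCA in its central 200 bases and the second 1 copy with 1 GATA word, printed on the plus strand with the same capitals as above.
Peak 7.92 kb upstream of Hbb-y, chr7:103861038-103861237: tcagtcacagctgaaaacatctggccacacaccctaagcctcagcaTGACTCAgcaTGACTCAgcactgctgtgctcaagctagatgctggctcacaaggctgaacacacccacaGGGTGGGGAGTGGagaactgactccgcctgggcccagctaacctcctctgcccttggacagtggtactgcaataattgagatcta
Peak 8.52 kb upstream of Hbb-y, chr7:103861638-103861837: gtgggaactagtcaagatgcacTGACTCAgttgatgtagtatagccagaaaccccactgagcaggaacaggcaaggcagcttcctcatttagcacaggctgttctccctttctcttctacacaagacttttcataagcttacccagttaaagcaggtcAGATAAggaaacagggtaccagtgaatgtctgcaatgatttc

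**Figure D4:**
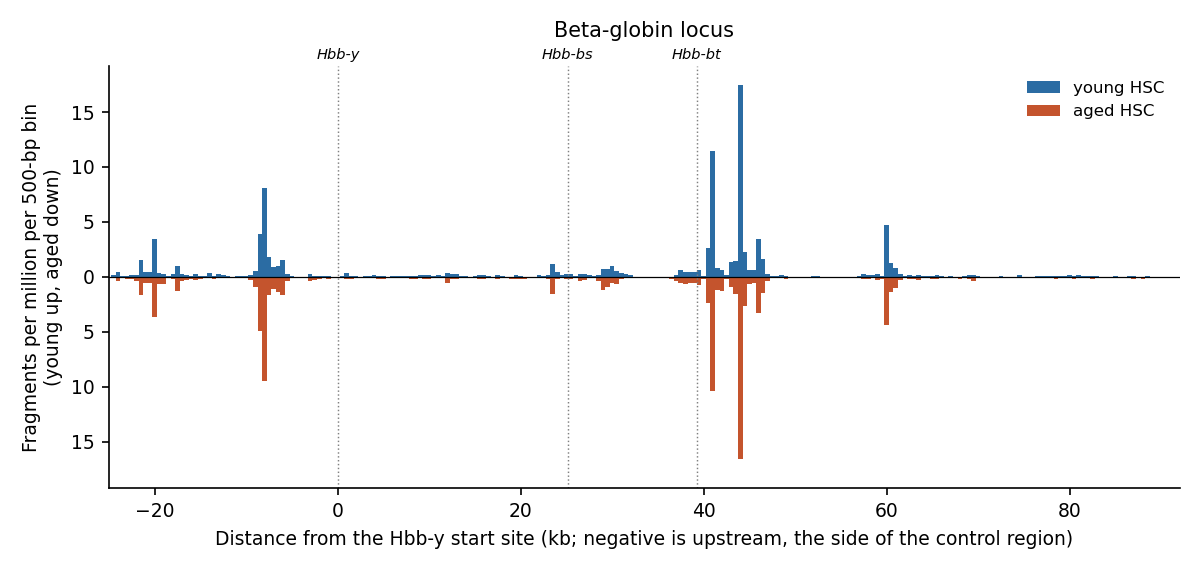
Levels in FPM per 500-bp bin (young upwards, aged downwards) against the distance in kb from the Hbb-y start site in the direction of transcription, with the start sites of Hbb-y, Hbb-bs and Hbb-bt marked. The pair of peaks 7.92 and 8.52 kb upstream is somewhat higher in the aged library. The 2 tallest bins lie downstream of Hbb-bt rather than at the promoters, where the Hbb-bs and Hbb-bt levels are lower bounds.

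Most cells had no fragment at a member promoter. Each cell was thinned to 3000 in-peak fragments, and shallower ones were left out, so that 4789 young and 3271 aged cells were compared. In these, at least 1 fragment at any of the 9 promoters was present in 21% (19.9 to 22.2, exact binomial) of young and 18.9% (17.5 to 20.2) of aged cells. Without thinning the shares were 40.6% and 39.97%. Car2 was covered in 11.5% (10.6 to 12.4) of young and 9.69% (8.70 to 10.8) of aged cells, Epor in 7.48% and 7.46%, and Klf1 in 2.19% and 1.77%. Each of the other 6 was covered in at most 0.376% of young and 0.489% of aged cells, the highest being Hbb-bt in both.

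Fragments at several members in the same cell were rare. In the thinned cells, 73 young and 33 aged cells had fragments at 2 of the 9 promoters, 1 young and 2 aged at 3, and 0 at 4 or more. Without thinning, 336 young and 222 aged cells had fragments at 2, 24 and 16 at 3, and 2 and 0 at 4 or more. Over the 6 promoters with the lowest levels (the 4 globin genes, Slc4a1 and Car1), the unthinned 154 young fragments came from 149 cells and the 94 aged fragments from 90 cells. Fragments at more than 1 of these 6 genes occurred in 2 young cells and 1 aged cell. Barcodes not called as cells held the same promoters at 6.42 FPM (3.08 to 11.8) in young and 12.2 FPM (7.37 to 19.1) in aged libraries, summed over the 6, against 4.44 and 3.59 FPM in the cells. Olfactory receptor promoters stood at a mean of 0.594 and 1.57 FPM in those barcodes, against 0.250 and 0.273 FPM in the cells. The open member Epor stood there at 34.0 FPM (25.5 to 44.5) in young and 31.6 (23.3 to 41.7) in aged libraries, intervals that held the 26.2 and 25.2 FPM in the cells.

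Fragment length differed among the members. Short fragments (under 150 bp) made up 69.6% (66.5 to 72.6) of the young and 62.7% (58.9 to 66.4) of the aged fragments at Epor, and 65.4% and 64.4% at Car2, near the 68.0% and 64.4% over all promoters. At Klf1 the share was 40.2% (34.0 to 46.7) and 36.5% (28.98 to 44.6). The Klf1 window thus held longer fragments than promoters as a whole in both libraries. At Hbb-bt 42.5% of 40 young and 29.3% of 41 aged fragments were short, and at Slc4a1 41.9% of 31 and 47.6% of 21. In young cells the shares were 26.1% at Hba-a2, 28.6% at Hbb-bs and 18.2% at Car1, each with an interval below the share over all promoters. In aged cells the intervals of Hba-a2 (4.33 to 77.7) and Hbb-bs (8.52 to 75.5) held that share. At Hba-a1 50% of 28 young fragments were short, with an interval (30.6 to 69.4) that held the share over all promoters.

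Other genes of red cell formation gave the comparison for the 9. Of 46 genes listed by role 45 were found in the annotation, and 39 had at least 50 promoter fragments. Their median log2 ratio was -0.03, beside -0.05 for all promoters, and 15 of the 39 were above 0. None was higher by 1.5-fold and 1 was lower, beside 3.99% and 1.30% of all promoters. The lower gene was Rhd, the gene of the Rh D antigen, with 35 young and 17 aged fragments and an interval that held 0 (-1.56 to 0.24). The median was -0.02 for 9 transcription factors, -0.03 for 9 genes of heme and iron, -0.02 for 12 membrane genes, -0.12 for 7 red cell proteins and -0.18 for the pair Hbq1a and Hbq1b.

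Many promoters of this list were open in HSCs, with a median of 15.2 FPM in young and 15.6 FPM in aged cells. The median of all promoters was 14.3 and 15.1 FPM. Zfpm1, the cofactor of Gata1, held 110 FPM in young and 107 FPM in aged cells, and Nfe2, which binds the TGANTCA core, 72.4 and 71.3 FPM. By contrast the embryonic globin promoters Hbb-y, Hbb-bh1 and Hba-x held 5 to 17 fragments in either library. Gata1 itself held 8 young and 9 aged fragments, 0.231 and 0.344 FPM, below the olfactory cut of each library. Ermap held 29 and 11 fragments and Slc25a37 0 and 0, so these genes too were under the minimum. For each gene of the list only the outermost annotated start site was counted. Among the highest ratios were those of Alas2, the erythroid enzyme that starts heme synthesis (47 and 50 fragments, log2 ratio 0.49), Lmo2, a partner of Tal1 (167 and 177, 0.49), Hemgn (28 and 26, 0.30) and Sptb, which encodes beta-spectrin (466 and 427, 0.28). The 5 lowest were Rhd, Trim10 (53 and 29, -0.44), Tspo2 (76 and 45, -0.34), Epb42 (526 and 315, -0.33) and Hbq1a (278 and 169, -0.31). Of the 39 intervals 3 lay above 0 and 6 below it, beside 12.2% and 23.2% of all promoters. Among the genes named here, those of Lmo2 (0.18 to 0.80), Sptb (0.09 to 0.47), Epb42 (-0.54 to -0.13) and Hbq1a (-0.60 to -0.03) left out 0. Hbq1a, a theta-globin gene beside Hba-a2, is one of a pair with Hbq1b, whose promoter held 237 and 172 fragments, log2 ratio -0.05 (-0.35 to 0.23).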

How the data were processed

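Single-cell ATAC-seq was analysed in 1 young and 1 aged library of sorted HSCs (Chromium Next GEM Single Cell ATAC v1.1), grouped by the sample labels. Per the study's methods and notes, the authors aligned reads to mm10 and called cells and peaks with Cell Ranger ATAC and worked in Signac. Per the file headers, the deposited fragment lists hold unique fragments with their read counts, and the deposited barcode tables hold counts of fragments per barcode (not normalized), of which the cell call and the in-peak count were used. No authors' comparison was used.

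Cells were called barcodes with 3000 to 20000 in-peak fragments. Doublets were called from loci covered by at least 3 fragments of a cell (Poisson, q under 0.01) and were kept. Peaks were called here from cut sites in windows of 151 bp (Poisson, q under 0.001) and merged over the libraries into 166208. A fragment counted once where an end lay in a region. Genes were those of GENCODE M21, and motifs and promoters came from RefSeq sequence of the same build. Ratios are log2 with a pseudocount of 1 fragment, and their intervals come from the exact binomial share of the raw counts. A fold of 1.5 with at least 50 fragments was used as a description, since 1 library per age allows no test. TMM factors were from edgeR 4.0.16, and the counting was tested on simulated data. The members and the gene lists were chosen with earlier results of these data known. Named among other erythroid genes were the 5 highest and 5 lowest ratios and those past the fold, of which 1 is not reported here, and in each locus the 3 highest bins outside start sites and the bins of extreme ratio. Peaks were named after their values were seen. Alternatives changed the scale, the cells, the fragments, the windows, the pseudocount, the fold and the minimum.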

Additional observations from a re-analysis of the deposited data

How the results depend on the processing

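No paired analysis was possible because each age has 1 library, and for the same reason no replicate could be left out. The median log2 ratio of the 9 promoters lay between -0.69 and -0.11 under 13 alternatives, with an interval that held 0 under 5 of them (thinned cells, doublets left out, short fragments, a pseudocount of 10 and globin pairs summed). The number of member promoters past the fold moved from 0: it was 1 higher of 4 with possible doublets left out (4.04% of all promoters) and 1 of 5 at a fold of 1.2 (11.6%), and 2 lower of 7 with cut sites (2.31%), 3 of 9 with no minimum (5.73%) and 1 of 4 with 500 bp on either side of the start site (1.04%). The median of the gene bodies, -0.12, was -0.015 with a pseudocount of 10 fragments and turned to 0.0059 without the window around the start site, where 7 bodies were left. Of 275 bins with the minimum over the 6 loci, 23 were higher and 11 lower, beside 13.3% and 5.02% of all bins. The counts were 5 higher and 8 lower among 140 bins with thinned cells (10.6% and 4.25% of all bins). With short fragments they were 3 and 9 among 145 (9.96% and 6.65% of all bins). Lower bins then outnumbered higher ones at these loci, but not over all bins. The counts were 31 and 27 among 331 with cut sites (15.7% and 7.81% of all bins) and 56 and 39 among 275 at a fold of 1.2 (31.9% and 16.4%). At a minimum of 20 fragments they were 71 and 53 among 488 (18.4% and 10.1%). Counts by locus under other settings were added after seeing the data. The cause of these shifts was not tested beyond what the settings themselves change. The log2 ratio of the alpha-globin control region lay between -0.13 and -0.02, with an interval that held 0 when scaled to promoter fragments or by TMM, with thinned cells, with doublets left out, with short fragments and without the Nprl3 promoter peak (added after seeing the data). That of the beta-globin control region lay between 0.09 and 0.28, and their intervals overlapped with thinned cells, with short fragments and without that peak. The share of cells with a fragment at a member promoter was 40.6% in young and 39.97% in aged cells when they were not thinned. The peak 25.3 kb upstream of Hba-x stayed between 1.39 and 1.75 under 9 alternatives chosen after seeing the data, all of them past the fold. The Car1 body turned from -0.12 to 0.31 with thinned cells, with an interval that held 0. Depth limits the globin promoters, Slc4a1 and Car1, with counts of 4 to 41 per library. With the settings used throughout, of their intervals only that of Hba-a2 left out 0. It held 0 with thinned cells, with short fragments and with 500 bp on either side of the start site.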
